A study of Mus musculus with 27 samples.

Results

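Accessible chromatin was compared between neonatal mouse cardiac fibroblasts given Gata4, Mef2c and Tbx5 together (GMT) and the same cells given Tbx5 alone (T), across all 30815 regions of the deposited count table. The comparison takes 6 of the 24 libraries in that table, 3 of GMT and 3 of T, and 20494 regions (66.5%) had enough counts to be tested. It gives the change when Gata4 and Mef2c are added together to Tbx5. Both groups were made from 1 immortalised fibroblast line, of strain Cd-1 and genotype alpha-MHC-GFP, in which large T antigen keeps the cells dividing. Both received sb431542, which inhibits TGF-beta signalling, with xav939, which inhibits Wnt signalling, and were taken unsorted at reprogramming day 2 after retroviral infection. The other libraries, 3 each, came from cells given Gata4 (G), Mef2c (M), both (GM), Gata4 with Tbx5 (GT) or Mef2c with Tbx5 (MT), all with the inhibitors, and from control cells given the red fluorescent protein dsRed without inhibitors. All groups share this immortalised line. The labels call the replicates biological but do not name separate cultures or animals, and the spread that p-values rest on may be partly technical. In unsorted cells, fewer cells with an open region and less opening in each cell cannot be told apart.

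ATAC-seq reads out chromatin that a transposase can enter, so a high count marks a stretch of DNA that is not wrapped up in nucleosomes. Gata4 is a zinc-finger factor, Mef2c a MADS-box factor and Tbx5 a T-box factor. Each is needed for normal heart development, and together they can push fibroblasts towards a heart-muscle-like state. All 3 bind DNA by sequence and can bind near each other at cardiac enhancers, the distant DNA elements that switch genes on.

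Total counts were 382527 to 676886 in T and 241394 to 1059307 in GMT, the lowest total of the series being GMT replicate 1. That library ranked regions less like GMT replicates 2 and 3 (Spearman 0.688 and 0.726 over regions) than they ranked each other (0.922). Its value with T replicate 3 was 0.774. Its mean was 0.707 with the other GMT libraries, 0.772 with MT and 0.750 with the control. GMT replicates 2 and 3 had means of 0.540 and 0.553 with the control. In T, replicate 3 was also nearer the control, at 0.737 against 0.570 and 0.600 for replicates 1 and 2. Among the groups outside the comparison, the library labelled GT replicate 1 correlated at 0.893 with the G libraries and 0.726 with the other GT libraries. GMT replicate 1 and GT replicate 1 kept their labels, and the main counts and medians that rest on them are also given without them. Levels are CPM, the count per library scaled by depth and by the trimmed mean of M-values (TMM), on which 1 count is worth 4.01 CPM in GMT replicate 1 and 0.991 CPM in GMT replicate 3.

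With Gata4 and Mef2c added to Tbx5, more regions were called higher than lower. Of the 20494 regions tested, 2895 (14.1%) differed: 1955 (9.54%) were higher in GMT than in T and 940 (4.59%) were lower, by edgeR's quasi-likelihood test at an adjusted p below 0.05. The median log2 fold change was 2.09 among the higher regions and -1.34 among the lower ones. A log2 fold change over 2 was seen in 1091 higher regions, and one under -2 in 197 lower regions. Every GMT library lay above every T library in 1628 of the 1955 higher regions, a separation found in 16.7% of all regions tested. Every GMT library lay below every T library in 820 of the 940 lower regions, against 11% of all regions tested.

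**Figure D1:**
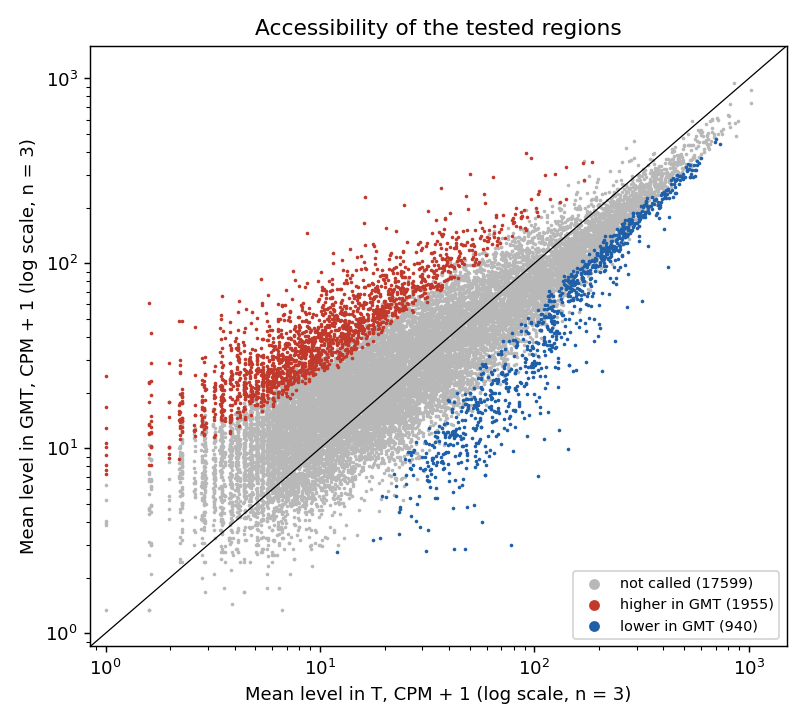
Mean accessibility of each tested region in T (x axis) and GMT (y axis), in CPM + 1 on log scales, 3 libraries a group, with the diagonal marking equal levels. The 1955 regions higher in GMT lie mostly at low T levels, and the 940 lower regions run along the lower edge of the cloud, also at levels where uncalled regions lie below the diagonal.

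The balance of rises and falls depended on how libraries were scaled. With size factors by relative log expression (RLE) there were 1713 higher and 1346 lower regions, with total counts alone 2318 and 600, and with loess offsets that depend on the mean count 1078 and 977. DESeq2 called 1441 higher and 1327 lower. The share of higher calls was 67.5% as reported, 56% with RLE, 79.4% with total counts, 52.5% with loess and 52.1% with DESeq2. The median log2 fold change of all regions was 0.14 with TMM, 0.05 with RLE, 0.27 with total counts and -0.03 with loess, and changes are to be read against it. Single libraries also moved the counts. There were 892 higher and 432 lower regions without GMT replicate 2, 893 and 327 without GMT replicate 3, and 572 and 233 without T replicate 2. Without T replicate 1 the balance turned, with 1064 higher and 1182 lower, and without T replicate 3 the lower ones numbered 1485. Leaving out GMT replicate 1 gave 2039 higher and 1058 lower. Under no setting was a called region called in the opposite direction.

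The 10 top-ranked rises had low levels in T, as ranking by fold change favours, and several were nearly shut there. They have the highest log2 fold changes of the called regions whose mean log2 CPM reaches the median of regions tested and whose GMT and T libraries do not overlap. Their T libraries ran from 0 to 23.5 CPM and their GMT libraries from 16.1 to 260 CPM, with log2 fold changes from 3.93 to 5.64. All 10 were also called higher in GM than in the control, in libraries outside the comparison that did enter the minimum of mean log2 CPM. Among all regions tested that share was 8.5%. Of the 10, M exceeded G in 7 (14.9% of all regions) and G exceeded M in 2 (15.8%). Regions low in T reach that minimum more easily when other groups are high, so these counts are partly fixed by the choice. One of the 7, chr13:83802070-83802270 (201 bp), was at 117 ± 72.2 CPM in M, 65.9 ± 43.6 CPM in GM and 55.7 ± 22.6 CPM in MT, but 3.22 ± 2.8 CPM in GT. Whether it or any region overlaps a coding exon of a given factor, where the retroviral DNA could add reads, was not tested.

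The highest-ranked rise was the 244 bp region chr7:140922621-140922864 (mm9). Its T libraries had 0, 0 and 1.9 CPM, from 0, 0 and 1 counts, and its GMT libraries 24.1, 47.7 and 50.6 CPM, from 6, 37 and 51 counts. The fitted log2 fold change was 5.64 ± 0.79 SE (adjusted p = 3.42e-05), but with 1 count in T its size is poorly fixed. The ratio of summed counts, scaled for depth, was 65.9, with an exact 95% binomial interval of 11.5 to 2630 that covers counting error only. The log2 fold change was 5.00 without T replicate 2 and 7.96 without T replicate 3. This region was at 28 ± 11.1 CPM (SD, n = 3) in G, 29.3 ± 5.44 CPM in M and 50.6 ± 11.7 CPM in GM, against 6.4 ± 2.57 CPM in the control. Each of these groups was called higher than the control by edgeR (adjusted p = 0.00328 for G, 0.00261 for M and 0.00027 for GM).

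The 7 top-ranked rises with M above G include the following. At chr1:156971562-156972064 (503 bp) the T libraries had 0, 0 and 3.8 CPM and the GMT libraries 28.1, 63.2 and 52.5 CPM. All 3 GMT libraries were high and T replicates 1 and 2 had no count (log2 fold change 5.01 ± 0.80, adjusted p = 0.000193). The ratio of summed counts, 109 in GMT and 2 in T, was 38.2 after scaling for depth, with an interval of 10.3 to 319. The log2 fold change was 4.33 without T replicate 2 and 8.19 without T replicate 3. M stood at 79.6 ± 10.9 CPM, GM at 65 ± 13.4 CPM and MT at 55.7 ± 22.5 CPM, while G, GT and the control were at 1.94 ± 0.602, 2.72 ± 3.67 and 2.66 ± 3.54 CPM. The open groups there were those given Mef2c. The groups given Mef2c were again the high ones at chr10:90498772-90499053 (282 bp), with 0, 1.79 and 7.6 CPM in T and 40.1, 56.8 and 63.4 CPM in GMT (log2 fold change 3.93 ± 0.61, adjusted p = 0.000145, and 5.32 without T replicate 3). M and GM were at 80.2 ± 7.78 and 82.2 ± 20.1 CPM there, and G and GT at 4.08 ± 2.98 and 6.14 ± 4.9 CPM. The most accessible of the top-ranked rises, chr3:132998051-132998402 (352 bp), had 23.5, 7.18 and 15.2 CPM in T and 177, 248 and 260 CPM in GMT (log2 fold change 3.996 ± 0.488, adjusted p = 1.04e-05). M held 236 ± 48.4 CPM there and G 61 ± 30 CPM, and G exceeded the 42.6 ± 31 CPM of GT by less than their spread. At chr15:27554910-27555280 (371 bp) the T libraries had 0, 7.18 and 5.7 CPM and the GMT libraries 56.2, 78.7 and 110 CPM. MT and M, at 102 ± 22.9 and 89.1 ± 21.4 CPM, lay within the range of GMT, and GM was at 41.1 ± 10.1 CPM.

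Of the 2 top-ranked rises with G above M, the higher-ranked was in the Gata4 list described further on. At chr3:128997626-128998215 (590 bp) the T libraries had 2.93, 12.6 and 7.6 CPM and the GMT libraries 72.2, 174 and 191 CPM (log2 fold change 4.16 ± 0.58, adjusted p = 3.42e-05). Here GM was at 125 ± 65.2 CPM, GT at 69.2 ± 49.9 CPM and G at 55.7 ± 31.9 CPM, whereas M and MT were at 15.8 ± 4.35 and 24 ± 3.09 CPM. The high GT value came mainly from replicate 1, at 126 CPM, the library that resembled G. Another member of that list, chr1:172120604-172120825 (222 bp), had 0, 5.38 and 1.9 CPM in T and 40.1, 52.9 and 37.7 CPM in GMT (log2 fold change 3.91 ± 0.65, adjusted p = 0.000314, and 5.04 without T replicate 2). G was at 68.5 ± 19.1 CPM there and GT at 62.1 ± 32.7 CPM, against 24.2 ± 8.13 CPM in GM and 1.59 ± 1.55 CPM in M.

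**Figure D2:**
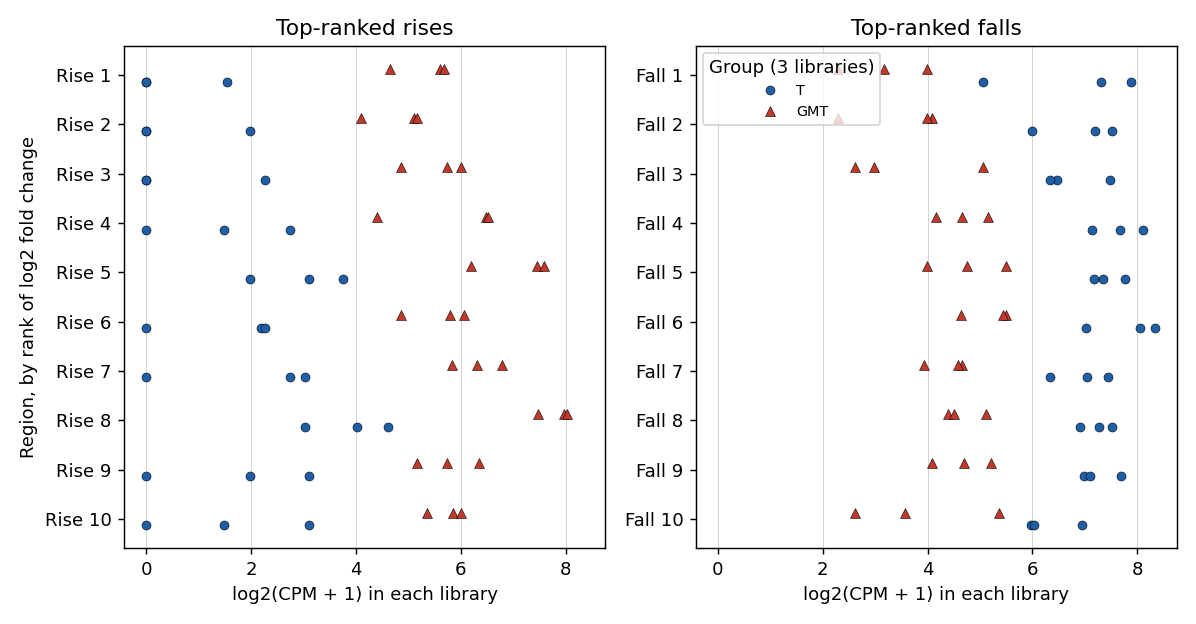
Level of the 10 top-ranked rises (left) and 10 top-ranked falls (right) in each of the 3 T libraries (circles) and 3 GMT libraries (triangles), as log2(CPM + 1), with regions ordered by log2 fold change. T and GMT do not overlap in any of them, as the choice of regions required, and several T libraries sit at 0 among the rises.

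In 9 of the higher regions no T library had a count, and in 154 the T libraries together had at most 3 counts. The region with no T count and the highest GMT level was chrX:139228186-139228497, at 23.7 CPM in GMT from 63 counts, which is at least 11.3-fold higher than T. That bound sets T at the 2.11 CPM that 3 counts over the 3 T libraries would give. No lower region was without counts in GMT, and 2 had at most 3 counts over the GMT libraries.

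To see which added factor the gained regions follow, they were set against libraries outside the comparison. Of the 1955 regions higher in GMT than in T, 663 (33.9%) were higher in M than in G and 391 (20%) higher in G than in M. Among all regions tested these shares were 14.9% and 15.8%. In the regions with M above G the median level was 48.7 CPM in M. The other groups given Mef2c stood close together, GM and GMT at 36.2 CPM and MT at 36.3 CPM, while G was at 8.76 CPM and T at 7.55 CPM. In the regions with G above M the median was 54.9 CPM in G, 47.8 CPM in GT, 41 CPM in GMT and 39 CPM in GM, with GT at 41 CPM and GMT at 47.9 CPM without their replicates 1. There M was at 11.9 CPM and T at 10.4 CPM. The same split appeared between the Tbx5 pairs. MT exceeded GT in 576 of the gained regions (29.5%, background 11.2%), and GT exceeded MT in 302 (15.4%, background 8.55%). Without the library labelled GT replicate 1 the numbers were 493 (25.2%, background 7.66%) and 225 (11.5%, background 5.17%).

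Many gained regions also changed in cells without exogenous Tbx5. Relative to the control, 876 of the 1955 (44.8%) were higher in GM and 0 lower, where 8.5% of all regions tested were higher and 3.75% lower. In M, 657 were higher (33.6%, background 9.67%) and 44 lower (background 6.47%). In G, 419 were higher (21.4%, background 9.61%) and 84 lower (background 6.07%). These comparisons with the control hold the inhibitors as well as the factors, because the control had none. The other 660 gained regions (33.8%, against 77.5% of all regions tested) were called higher in none of G, M and GM against the control, GM against M, and GM against G. Their median level was 37.4 CPM in GMT and 9.68 CPM in T, as chosen. The other groups lay between, the control at 16.9 CPM being the lowest and GM at 24.6 CPM the highest of them, and GMT was at 42.6 CPM without replicate 1.

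Medians over all 1955 gained regions were 37.3 CPM in GMT and 8.47 CPM in T, a gap that the choice of these regions fixed. GM was at 32.5 CPM and the control at 10.8 CPM. M was at 25.8 CPM, MT at 24.4 CPM, GT at 18.7 CPM and G at 17.9 CPM. From GMT replicates 2 and 3 alone the GMT median was 42.2 CPM. The GT median was 17.5 CPM without replicate 1. Of these 1955 regions, 352 (18%, background 10.6%) were called lower in T than in the control and 51 (2.61%, background 14.5%) higher. Choosing regions low in T favoured this, and T had the inhibitors while the control had none.

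**Figure D3:**
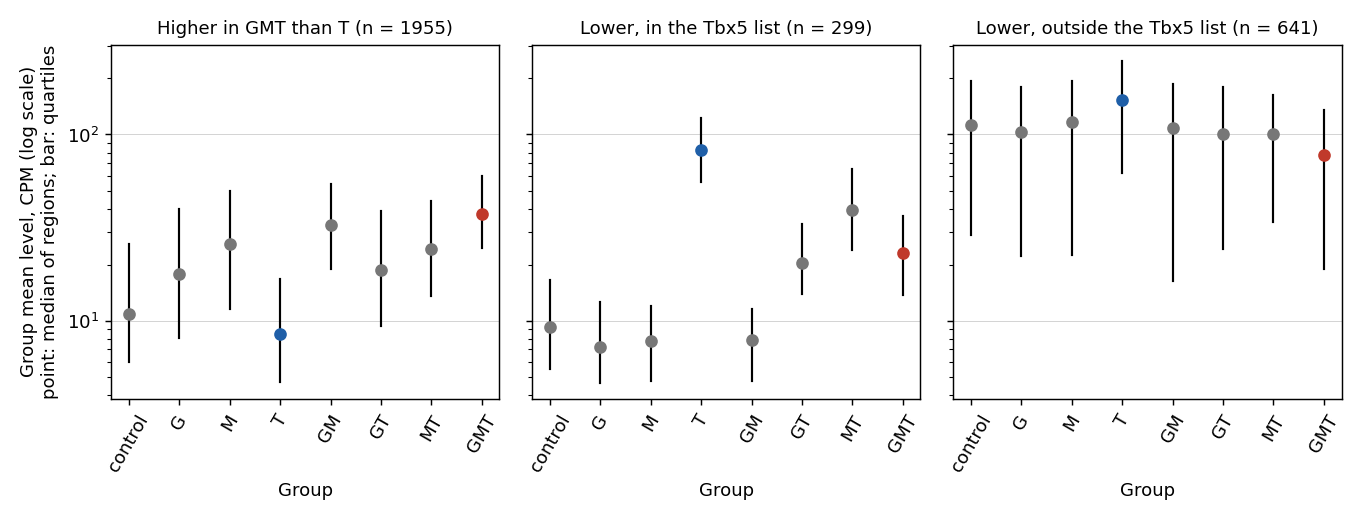
Group mean accessibility in CPM on a log scale in all 8 groups, as the median (point) and quartiles (bar) over the 1955 regions higher in GMT than T, the 299 lower regions that Tbx5 raised in other libraries, and the other 641 lower regions. T (blue) is lowest in the first set, far above every other group in the second, and moderately above the rest in the third.

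Lists of regions that answer to each added factor were drawn only from libraries other than GMT and T, with the inhibitors matched. In each alternative fit the lists were drawn anew. The Mef2c list holds the 1183 regions higher in GM than in G (5.77% of those tested). In GMT versus T, 559 of its members (47.3%) were higher and 0 lower, against 9.54% and 4.59% of all regions tested. Their median log2 fold change was 1.60, beside 0.14 for all regions. The Mef2c list took 1.52%, 1.22% and 1.86% of the counts in T replicates 1 to 3 and 4.04%, 4.42% and 5% in GMT replicates 1 to 3. The GMT libraries all lay above the T libraries. Members called higher numbered 339 without GMT replicate 2, 298 without GMT replicate 3, 351 without T replicate 1, 245 without T replicate 2, 544 without GMT replicate 1, 643 without GT replicate 1 and 347 with loess offsets.

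The Gata4 list, the 542 regions higher in GM than in M (2.64% of those tested), gave the same direction. In GMT versus T, 204 members (37.6%) were higher and 0 lower, and the median log2 fold change was 1.22. Its share of counts was 1.37%, 1.13% and 1.63% in T and 2.53%, 3.27% and 3.03% in GMT, again without overlap. Members called higher numbered 93 without GMT replicate 2, 100 without GMT replicate 3, 117 without T replicate 1, 78 without T replicate 2, 240 without GMT replicate 1, 281 without GT replicate 1 and 128 with loess offsets. Of the 1955 gained regions, 539 (27.6%) were in the Mef2c list only, 184 (9.41%) in the Gata4 list only, 20 (1.02%) in both and 1212 (62%) in neither. Of all 20494 regions tested, 1183 (5.77%) were in the Mef2c list and 542 (2.64%) in the Gata4 list, with 30 in both. The 20 gained regions in both, which the lists require to be higher in GM than in G and in M, had median levels of 45.6 CPM in GM, 12.7 CPM in G and 8.69 CPM in M. With Tbx5 the medians were 42.6 CPM in GMT, 11.1 CPM in GT and 14 CPM in MT.

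Few of the regions lowered by Gata4 or Mef2c in other libraries were called lower in GMT. Of 384 regions lower in GM than in M (1.87% of those tested), 2 were lower and 36 higher in GMT than in T, with a median log2 fold change of 0.57. The 36 are 9.38% of the list, a share near the 9.54% of all regions, and 4.59% of all regions were lower. Of 307 regions lower in GM than in G (1.5%), 2 were lower and 18 higher, with a median of 0.43. Both lists were already low in T, at medians of 7.97 and 9.97 CPM beside 20.1 CPM for all regions tested. Whether these low levels limited the number of falls was not tested.

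**Figure D4:**
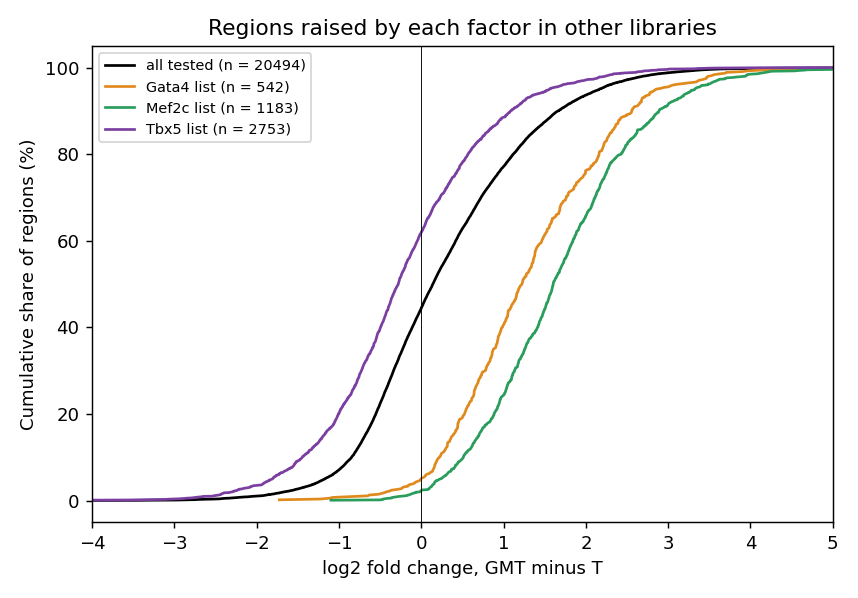
Cumulative share of regions (%) by log2 fold change of GMT minus T, for all 20494 regions tested and for the regions raised by Gata4, Mef2c or Tbx5 in libraries other than GMT and T. The Gata4 and Mef2c curves lie to the right of all regions, with medians of 1.22 and 1.60, and the Tbx5 curve to the left, with a median of -0.28.

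Regions opened by Tbx5 made up a part of the falls. The Tbx5 list holds the 2753 regions (13.4% of those tested) that were higher on average in GT and MT than in G and M. In GMT versus T, 299 of its members (10.9%) were lower, against 4.59% of all regions, and 153 (5.56%) were higher, against 9.54%. The median log2 fold change of the list was -0.28. In the alternative fits that median ran from -0.69 without replicate 2 of all groups to -0.03 without replicate 1 of all groups. In the fit without replicate 1, 229 members were lower and 213 higher. The list's share of counts, 20.1%, 15.1% and 14.1% in T and 11.5%, 16.8% and 15.2% in GMT, overlapped between the groups. Members called lower numbered 193 without GMT replicate 2, 116 without GMT replicate 3, 198 without T replicate 1, 116 without T replicate 2 and 457 without the library labelled GT replicate 1, where the list itself grew to 3420 members. Without GMT replicate 1, 264 were lower and 191 higher. Members called higher numbered 59, 63, 79 and 52 without GMT replicate 2, GMT replicate 3, T replicate 1 and T replicate 2, 81 without T replicate 3, 242 without GT replicate 1 and 68 with loess offsets. The remaining 2301 members were not called. Their median was 45.5 CPM in T and 38.3 CPM in GMT, beside 9.4 CPM in the control. Another 285 regions (1.39% of those tested) were lower on average in GT and MT than in G and M. Of these, 74 (26%) were higher in GMT than in T and 3 (1.05%) lower, with a median log2 fold change of 0.96. Their median level was 9.45 CPM in T, 22.7 CPM in GMT and 28 CPM in the control.

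Of the 10 top-ranked falls, chosen with the same minimum of mean log2 CPM over all groups, 9 are in the Tbx5 list. The exception, the 201 bp region chr3:139549650-139549850, was the highest-ranked. It had 158, 235 and 32.3 CPM in T and 8.03, 3.87 and 14.9 CPM in GMT (log2 fold change -3.89 ± 0.58, adjusted p = 8.53e-05, and -4.51 without T replicate 3 or -4.75 without GMT replicate 3). T replicate 3 was far below the other T libraries but above every GMT library. All other groups were low there, from 5.65 ± 2.55 CPM in G to 18 ± 10.9 CPM in MT, against a T mean of 142 ± 102 CPM.

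At chr12:28205339-28205615 (277 bp) the T libraries had 182, 145 and 62.7 CPM and the GMT libraries 16.1, 3.87 and 14.9 CPM (log2 fold change -3.55 ± 0.64, adjusted p = 0.000546). MT had 58.4 ± 26.9 CPM, GT 12.7 ± 11 CPM and the control 5.98 ± 1.08 CPM, and MT exceeded GT (adjusted p = 0.01), where GT replicate 1 had no count. At chr6:117968509-117968963 (455 bp) the values were 126, 205 and 137 CPM in T and 16.1, 36.1 and 24.8 CPM in GMT (log2 fold change -2.52 ± 0.51, adjusted p = 0.00165). MT was again nearer to T, at 100 ± 33.8 CPM, than GT, at 28.4 ± 17.8 CPM. At chr9:44499426-44499981 (556 bp), the most open of these in T, T had 264, 321 and 129 CPM and GMT 44.2, 42.6 and 23.8 CPM (log2 fold change -2.74 ± 0.42, adjusted p = 0.000113). GT and MT overlapped in their spread there, at 48.7 ± 25.9 and 63.7 ± 10 CPM, with the control at 18.4 ± 6.8 CPM. At the region ranked last of the 10, chr6:67483294-67483496, the call was lost without GMT replicate 2, without GMT replicate 3 or without T replicate 2.

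The 299 lower members of the Tbx5 list were closed without Tbx5, at medians of 7.24 to 9.27 CPM in G, M, GM and the control. The median was 82.7 CPM in T and 39.4 CPM in MT. It was 23 CPM in GMT and 20.4 CPM in GT, or 26.2 CPM in GT without replicate 1. T above GMT, and GT and MT above G and M, were fixed by the choice. The other 641 lower regions had high medians in all groups, though not every member was open in each, the highest-ranked fall being one of them. Their medians were 112 CPM in the control, 103 CPM in G, 116 CPM in M, 108 CPM in GM, 101 CPM in GT, 100 CPM in MT, 154 CPM in T and 77.4 CPM in GMT. Their lower quartile was 16.4 CPM in GM and 19 CPM in GMT. These sets responded differently to scaling: with loess offsets 295 of the 299 and 316 of the 641 were called lower, and with total counts alone 221 and 379. RLE size factors kept all members of both sets.

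The 153 members of the Tbx5 list called higher in GMT had medians of 8.09 CPM in the control, 10.7 CPM in M, 12 CPM in G and 20.5 CPM in GM. With Tbx5 the medians were 16.7 CPM in T, 27.7 CPM in GT, 37.6 CPM in MT and 63.9 CPM in GMT, or 34.3 CPM in GT and 72.1 CPM in GMT without their replicates 1. The choice of members fixed GT and MT above G and M, and GMT above T. They were wide, at a median of 400 bp beside 261 bp for all regions tested. Among those whose mean log2 CPM reaches the median of regions tested, the highest fold was at chr8:36529436-36529805 (370 bp). This region had 5.86, 3.59 and 0 CPM in T and 28.1, 45.1 and 25.8 CPM in GMT (log2 fold change 3.48 ± 0.72, adjusted p = 0.00187, and 2.73 without T replicate 3). Its level was 54.1 ± 23.3 CPM in G and 43.4 ± 16 CPM in GT, and 1.82 ± 2.32 CPM in M and 14.5 ± 8.03 CPM in MT. Its place in the list thus rested on MT above M, which was near 0, and not on GT above G. T was called lower there than the control by edgeR (adjusted p = 0.0211). The control, without inhibitors, was at 15 ± 4.3 CPM. At chr5:148661608-148662200 (593 bp) the T libraries had 5.86, 5.38 and 11.4 CPM and the GMT libraries 8.03, 74.8 and 139 CPM (log2 fold change 3.35 ± 0.70, adjusted p = 0.00214, and 2.59 without GMT replicate 3). GMT replicate 1, with 2 counts, fell within the range of T there.

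Whether Gata4 and Mef2c together did more or less than the sum of each alone was tested as an interaction, GMT minus GT minus MT plus T. No region was called by edgeR's quasi-likelihood test (smallest adjusted p = 0.332), with 2214 regions (10.8%) at an unadjusted p below 0.05, and DESeq2 called 0. At the listed regions the separate additions to Tbx5 were unequal. In the Mef2c list the median log2 fold change was 0.02 for GT versus T, 1.72 for MT versus T and 1.60 for GMT versus T, all against the same T libraries. The interaction had a median of -0.14 in this list and 0.00344 without GT replicate 1, beside -0.05 for all regions. In the Gata4 list the medians were 1.61 for GT versus T, 0.12 for MT versus T and 1.22 for GMT versus T. There the interaction had a median of -0.48, and of -0.28 without GT replicate 1. In the Tbx5 list described above it was 0.82, and 0.44 without GT replicate 1, but GT and MT entered both this list and the interaction.

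The effect of Gata4 and Mef2c in Tbx5 cells was also set against their effect in cells without it, as GMT versus T minus GM versus control. No region was called by edgeR (smallest adjusted p = 0.108), with 2378 regions (11.6%) at an unadjusted p below 0.05. DESeq2 called 90 regions, 50 higher and 40 lower, and edgeR without T replicate 3 called 71. The second effect includes the inhibitors. Of the 1742 regions that GM raised over the control, 876 (50.3%) were higher in GMT than in T and 0 lower, with a median log2 fold change of 1.72. Of the 768 regions that GM lowered, 34 (4.43%) were lower in GMT than in T and 0 higher, a share near the 4.59% of all regions. The median of these 768 regions was 24.9 CPM in T and 60.6 CPM in the control, beside 20.1 and 18.9 CPM for all regions tested.

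Gained regions were wider than the rest. Their median width was 318 bp, against 276.5 bp for lower regions and 261 bp for all regions tested. The share called higher was 1.95% of the 201 bp regions, 7.57% of those from 202 to 300 bp, 12% of those from 301 to 400 bp and 16.7% of those over 400 bp. The share called lower changed less, from 3.79% to 6.35%. Wider regions also held more reads, with a median sum over the 18 other libraries of 190 counts in the narrowest class and 571 in the widest, and the part of depth in this trend was not tested. By chromosome, the share called higher ran from 7.49% on chromosome 10 to 11.9% on chromosome 18, and the share called lower from 2.89% on X to 7.64% on 17. Within 10 kb of another region of the same kind lay 251 (12.8%) of the higher and 76 (8.09%) of the lower regions, beside 8135 (39.7%) of all regions tested, a larger set.

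The balance of rises and falls differed with the level outside the comparison, in an order that depended on scaling. Regions were split into 4 bins of nearly equal size by their mean level in the 6 groups other than GMT and T. Of the bin with the highest levels, from 49.4 CPM up, 368 were higher and 457 lower in GMT than in T. In the third bin 704 were higher and 125 lower. Loess offsets turned this order round in the top bin, with 356 higher and 140 lower, and in the lowest bin, which went from 353 higher and 210 lower to 141 higher and 313 lower. RLE size factors gave 312 higher and 757 lower in the top bin.

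**Figure D5:**
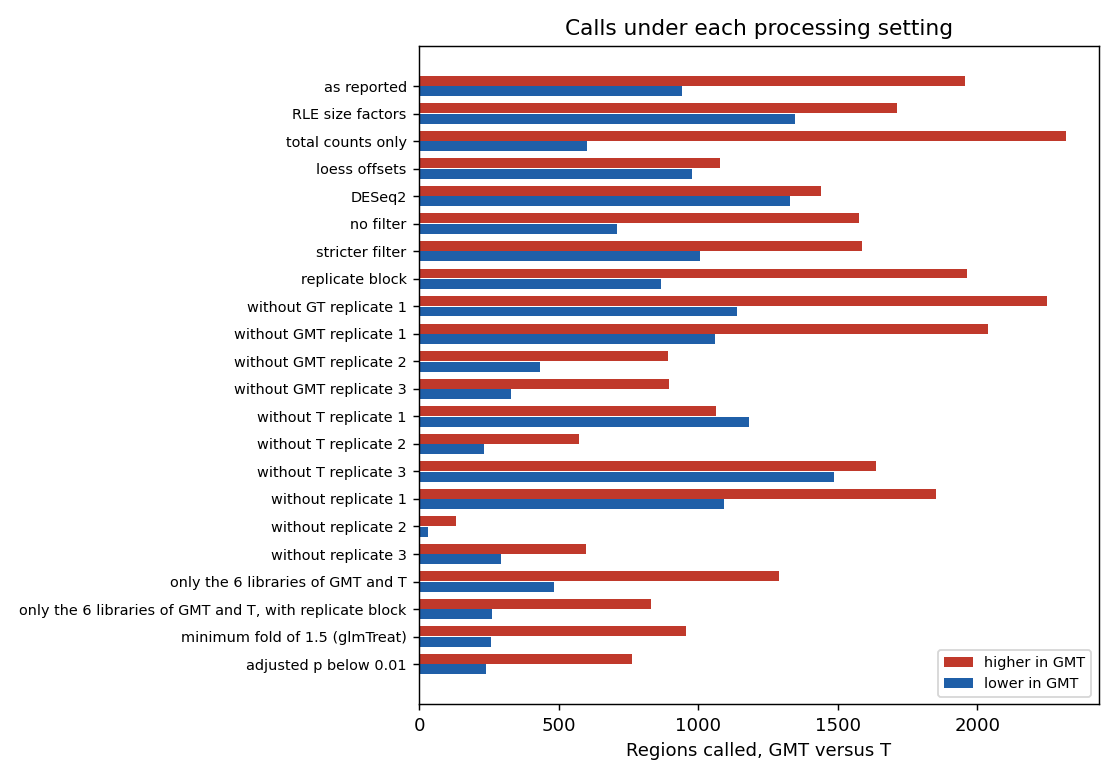
Number of regions called higher (red) and lower (blue) in GMT than T as reported and under each alternative setting, with bars from 0. Leaving out T replicate 2, or replicate 2 of all groups, gives the fewest calls among the fits that leave out samples, and loess offsets and DESeq2 bring higher and lower counts closest together among the other scalings and tools.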

How the data were processed

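ATAC-seq libraries of the groups above were compared as the authors deposited them, as raw counts per region that were not normalised. Bowtie2, Picard, featureCounts and the mouse build mm9 are named without versions, per the submitters' processing notes. The definition of the regions, 201 to 1484 bp wide, and the filters on reads are not given in the sources used here. Of 27 labelled samples, 3 dsRed samples with the inhibitors are not analysed here.

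Software was R 4.3.3, edgeR 4.0.16, limma 3.58.1 and DESeq2 1.42.0. The filter was filterByExpr (minimum count 10, minimum total 15), the scaling TMM, and the test edgeR's quasi-likelihood test on all 8 groups fitted together. Benjamini-Hochberg adjustment ran over the 20494 regions. SE is the size of the log2 fold change divided by the square root of F. Factor lists came from the same fit and threshold. Besides 10 rises and 10 falls, the rule for named regions took up to 2 called members of each factor list in each direction, and up to 3 called regions in each direction of the interaction and of the difference from GM versus control, where edgeR called none. The comparison, its lists and rules were chosen with earlier results of these data known. The test was tried on simulated data. Alternatives changed the scaling, filter, tool, threshold, libraries or replicate block. Those added after seeing the data were the GT values without GT replicate 1, the GMT levels from replicates 2 and 3, the calls of subsets and level bins under other scalings, and the counting intervals of rises with few T counts. Only a GRCm38 annotation was at hand. Regions of mm9 reach past its last gene on 9 of 21 chromosomes, and therefore no gene, sequence, motif or marker gene was assigned.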

Additional observations from a re-analysis of the deposited data

How the results depend on the processing

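No region called in GMT versus T was called in the opposite direction in any alternative, and the interaction gave 0 calls in each. Against 2895 calls (1955 higher, 940 lower), fitting only the 6 libraries of GMT and T gave 1771 (1288 and 483), the same with a replicate block 1090 (829 and 261), a minimum fold of 1.5 by glmTreat 1212 (956 and 256), and an adjusted p below 0.01 gave 1003 (763 and 240). Loess offsets gave 1078 higher, 128 members of the Gata4 list, 347 of the Mef2c list and 68 of the Tbx5 list higher, and 316 of the 641 lower regions outside the Tbx5 list. Total counts alone gave 600 lower and 379 of those 641. Members of the Tbx5 list called higher numbered 93 with DESeq2 and 97 with no filter. DESeq2 called 90 regions in GMT versus T compared with GM versus control. The cause of these shifts was not tested. Where fewer libraries were fitted, fewer samples entered the fit, and the filter was applied anew. The fits of only the GMT and T libraries tested 12882 regions, beside 20494 in the main fit.

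Leaving out 1 library or 1 replicate number gave 163 to 3389 calls, 132 to 2251 higher and 31 to 1485 lower, the lowest without replicate 2 of all groups. The difference from GM versus control then ranged from 0 to 71 calls. Members called higher ran from 7 to 281 in the Gata4 list, from 38 to 643 in the Mef2c list and from 4 to 242 in the Tbx5 list, and members of the Tbx5 list called lower from 14 to 457. The redrawn lists also changed in size. Without replicate 3 of all groups, 7 of 26 Gata4 members (26.9%) and 38 of 72 Mef2c members (52.8%) were higher. Without replicate 2 of all groups the numbers were 10 of 134 (7.46%) and 64 of 811 (7.89%). The Tbx5 list then held 872 members, 4 higher and 14 lower. The median of the Mef2c list ran from 1.454 to 2.368, the highest from the 72 members without replicate 3. Of the 23 named regions, 15 kept their call in every alternative that tested them. The fold change of 12 of the 23 moved by over 1.5 times when 1 library of GMT, T or GT was left out. The named regions that lost the call did so without replicate 2 of all groups, and chr5:148661608-148662200 and chr6:67483294-67483496 in others too.

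With the replicate number as a block in the fit of all groups, 2826 regions were called, 1961 higher and 865 lower. The numbers did not pair the samples: deviations of same-numbered GMT and T libraries correlated at -0.28, 0.08 and -0.13, and 1 of 6 samples correlated best with its own number. Depth limits low regions most, since 1 count in GMT replicate 1 is worth 4.01 CPM.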
